A study of Mus musculus with 12 samples.

Results

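The 58 genes described here drive the step from G2 into mitosis and the mechanics of cell division. They were chosen as a fixed list of symbols, with earlier results of these data known. Each was found once among the 56748 genes of the count table, and all 58 passed the filter on low counts that left 16465 genes for testing. RNA was sequenced from 10T1/2 cells (C3H10T1/2, an established wild-type mouse line of mesenchymal progenitors), in 12 libraries, 4 in each of 3 groups. All cells were starved of serum, held in suspension for 1 h (in 0.5% serum by the labels, without serum by the study's methods) and then kept for 18 h, in low serum by the methods, on hydrogels of 12 kPa stiffness that carried type I collagen (0.05 mg/ml). In the col1 group the coating was collagen alone. In the col1-ACLP group recombinant aortic carboxypeptidase-like protein (ACLP), a secreted collagen-binding protein of connective tissue, was present at 30 nM while the collagen polymerized. The col1-ACLP+SB group had the same coating and received SB431542 at plating, an inhibitor of the TGFβ type I receptor kinase ALK5. No group received SB431542 on collagen alone, so the inhibitor can be compared only on the ACLP matrix. The comparison of col1-ACLP with col1 asks how matrix-bound ACLP changes the RNA of these cells, and the other comparisons ask how much of that is seen with ALK5 inhibited.

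A cell enters mitosis when cyclin B-bound CDK1 becomes active, with cyclin A, CDC25 phosphatases and the Polo and Aurora kinases as helpers. The chromosomes are then condensed, attached to the spindle through their kinetochores and held under the spindle checkpoint until the anaphase-promoting complex (APC/C) releases sister chromatids and ends the state by destroying cyclins and securin. Most genes of this machinery are transcribed together late in the cell cycle and are kept off in resting cells by the DREAM complex, which binds short promoter motifs named the cell cycle genes homology region (CHR), while the factor NF-Y binds CCAAT boxes in many of the same promoters.

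Deposited counts summed to 29246154 to 52201922 per library. Levels are counts per 1000000 (CPM) scaled by the TMM method and are listed in the order of replicates 1 to 4, which has no meaning between groups. The mesenchymal identity given by the labels was checked with 9 markers, all of which were expressed (among them Col1a1 at 11895 CPM and Vim at 5209 CPM on col1). Of 16 markers of immune, endothelial, epithelial and fat cells, 5 were abundant enough to be tested, and Cd68 was the highest on col1 at 9.46 CPM. Adgre1, Cd3e and Epcam were at 0 in all 12 libraries. By edgeR, 2 mesenchymal markers were higher on ACLP than on col1 (Col1a1 and Col1a2) and 4 lower (Pdgfra, Pdgfrb, Prrx1 and Twist1), and Cd68 was lower by a log2 fold change of -0.49 (adjusted p = 0.0284). With the inhibitor against col1, 2 mesenchymal markers were higher and 4 lower, and Fabp4, a gene of fat cells, was lower at -1.97 (adjusted p = 0.0133). Between the ACLP groups 2 mesenchymal markers were lower, and the endothelial Tek was lower at -0.86 (adjusted p = 0.0116). The summed level of the 4 immune markers was 9.13 to 10.0 CPM in the col1 libraries, 5.31 to 8.71 with ACLP and 7.11 to 9.79 with ACLP and the inhibitor, that of the 4 endothelial markers 5.06 to 8.29, 7.52 to 9.85 and 4.30 to 6.40 CPM, that of the 4 epithelial markers 3.00 to 3.76, 2.60 to 4.84 and 2.33 to 4.03 CPM, and that of the 4 fat cell markers 0.794 to 2.28, 0.390 to 1.02 and 0.342 to 0.694 CPM. The part of these markers in the differences of the mitotic genes was not tested. Gene positions are those of the deposited table, which match GRCm39, the build in the study's methods (the submitters' processing notes name mm10). The share of counts on mitochondrial genes was 2.36 to 2.93% in the col1 libraries, 2.00 to 2.25% with ACLP and 2.11 to 2.89% with ACLP and the inhibitor, and its part in the differences below was not tested. In bulk RNA, more cells in G2 or mitosis and more of these transcripts per cell cannot be told apart.

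Promoters are shown first because these genes are known to share a promoter code, and because the members printed include some that differed between the matrices and 3, Ccnb2, Cdk1 and Birc5, that did not pass the test. RefSeq windows of 300 bases on GRCm38.p6 (250 before the transcript start and 50 from the start base onwards) matched 49 of the 58 members. No entry matched for Ccna2, Cdc25c, Spc24, Aurkb, Incenp, Kif20a, Tpx2, Dlgap5 and Smc4. Capitals mark the CHR letters searched (TTTGAA, its reverse complement TTCAAA, or TTCGAA) and the CCAAT box (CCAAT or its reverse complement ATTGG). Cyclin B genes, Cdk1, Plk1 and Birc5 were chosen by role, and Top2a was added after its values had been seen. The windows lie at chr13:100786437-100786736 (minus strand) for Ccnb1, chr9:70421505-70421804 (minus strand) for Ccnb2, chr10:69352863-69353162 (minus strand) for Cdk1, chr7:122159185-122159484 (plus strand) for Plk1, chr11:117848987-117849286 (plus strand) for Birc5 and chr11:99024140-99024439 (minus strand) for Top2a, each written along its gene.
Ccnb1: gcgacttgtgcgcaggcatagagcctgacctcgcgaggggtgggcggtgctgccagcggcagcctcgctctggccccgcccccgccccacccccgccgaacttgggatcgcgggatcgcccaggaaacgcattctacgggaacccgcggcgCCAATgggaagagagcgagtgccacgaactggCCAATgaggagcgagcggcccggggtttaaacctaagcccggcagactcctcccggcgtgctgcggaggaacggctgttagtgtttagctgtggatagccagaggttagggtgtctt
Ccnb2: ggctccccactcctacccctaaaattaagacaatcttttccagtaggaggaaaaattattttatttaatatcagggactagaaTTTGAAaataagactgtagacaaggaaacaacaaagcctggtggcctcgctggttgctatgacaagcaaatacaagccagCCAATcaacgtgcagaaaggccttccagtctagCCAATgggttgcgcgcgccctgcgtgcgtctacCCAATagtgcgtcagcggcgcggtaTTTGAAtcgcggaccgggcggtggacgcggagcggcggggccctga
Cdk1: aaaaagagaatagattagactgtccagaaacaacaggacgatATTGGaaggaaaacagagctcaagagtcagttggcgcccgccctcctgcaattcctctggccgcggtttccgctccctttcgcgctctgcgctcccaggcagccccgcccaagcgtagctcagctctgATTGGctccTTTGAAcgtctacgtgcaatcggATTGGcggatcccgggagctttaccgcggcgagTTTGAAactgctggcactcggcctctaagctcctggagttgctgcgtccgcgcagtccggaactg
Plk1: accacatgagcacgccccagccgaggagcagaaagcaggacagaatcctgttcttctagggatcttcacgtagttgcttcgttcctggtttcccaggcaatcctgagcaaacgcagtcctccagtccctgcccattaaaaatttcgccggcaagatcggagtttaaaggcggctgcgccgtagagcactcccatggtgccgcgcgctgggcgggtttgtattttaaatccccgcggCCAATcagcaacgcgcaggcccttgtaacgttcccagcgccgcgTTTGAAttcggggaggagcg
Birc5: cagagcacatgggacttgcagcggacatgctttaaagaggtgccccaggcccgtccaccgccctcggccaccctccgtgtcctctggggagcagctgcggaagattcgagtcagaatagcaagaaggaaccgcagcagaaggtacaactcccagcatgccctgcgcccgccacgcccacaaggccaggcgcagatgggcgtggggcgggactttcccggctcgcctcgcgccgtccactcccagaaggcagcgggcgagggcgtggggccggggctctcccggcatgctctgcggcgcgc
Top2a: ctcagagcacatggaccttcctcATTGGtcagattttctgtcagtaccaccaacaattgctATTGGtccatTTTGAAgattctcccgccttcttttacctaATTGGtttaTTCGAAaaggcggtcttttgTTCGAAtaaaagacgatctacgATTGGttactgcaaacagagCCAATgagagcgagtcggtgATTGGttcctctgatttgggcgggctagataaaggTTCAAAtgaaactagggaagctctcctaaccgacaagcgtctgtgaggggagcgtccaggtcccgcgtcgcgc

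The 2 cyclin B promoters differ in these letters. Ccnb1 holds 2 CCAAT boxes, which begin 99 and 67 bases before the start, and none of the CHR letters searched. Ccnb2 holds 3 CCAAT boxes and 2 CHR matches, 1 of them 4 bases after the start. Cdk1 has CHR matches 71 and 15 bases before its start, and Plk1 has 1 that begins 30 bases after it. Top2a, with 4 CHR and 6 CCAAT matches, holds both motifs many times over, and the Birc5 window holds neither. Over 1 window per member, 36 of 49 (73.5%) held CHR letters, against 19.2% of all 32851 windows in the table and 17.6% of those of protein-coding genes. CCAAT letters were in 36 of 49 (73.5%), against 37.4% of all windows, and both motifs were in 31 of 49 (63.3%), against 7.52%. A CHR match within 40 bases of the start was present in 63.3% of member windows and in 4.54% of all windows. In 1 case among the members a CHR match and a CCAAT match overlapped. A match is a description of the letters searched, other variants of the motifs were not counted, and binding was not measured.

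**Figure D1:**
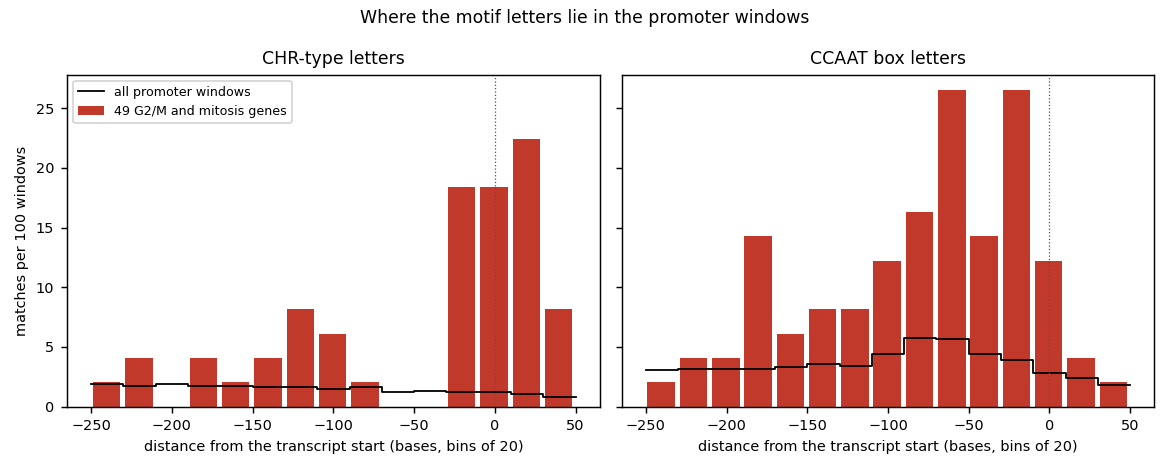
Matches per 100 promoter windows in bins of 20 bases, by distance from the transcript start, for CHR letters (left) and CCAAT letters (right). Bars are the 49 members with a window (1 window each) and the black line is all 32851 windows. Member CHR matches gather around the start, with 18.4, 18.4 and 22.4 per 100 windows in the bins from -30 to 29, where the line lies between 1.03 and 1.24.

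Between col1-ACLP and col1, the mitotic genes were mostly higher on ACLP. By the quasi-likelihood test of edgeR, with p-values adjusted by Benjamini-Hochberg over all tested genes, 38 of 58 members (65.5%) were higher at an adjusted p under 0.05, while 9.52% of all tested genes were. A single member, Smc4, was lower, against 8.41% of all tested genes. The estimate was above 0 for 57 of the 58 and for 48.5% of all tested genes. Members had a median log2 fold change of 0.53, with quartiles of 0.44 and 0.70, beside a median of -0.01 over all tested genes. Past a log2 fold change of 0.58, the size that the study required, 23 members were higher and none was lower. By this rule 430 of all 16465 tested genes (2.61%) were higher and 389 were lower. All 4 col1-ACLP libraries lay above all 4 col1 libraries in 34 members, as in 10.9% of all tested genes, and below them in Smc4, as in 10.3%. With edgeR's glmTreat, which tests whether a change exceeds 0.58, the count of 23 fell to 1. The share of all tested genes was not counted with glmTreat. Without col1-ACLP replicate 2 the count of 38 was 26, and without any other library it lay between 28 and 38.

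The summed level of the 58 genes was 638.6, 588.9, 598.3 and 595.8 CPM in the col1 libraries. It was 796.6, 888.0, 839.4 and 771.5 CPM in the col1-ACLP libraries and 723.3, 710.0, 747.1 and 720.4 CPM in the col1-ACLP+SB libraries. The 3 groups did not overlap in this sum, and the groups stood in the order col1, col1-ACLP+SB, col1-ACLP. Within col1-ACLP, replicate 2 was the highest library for 32 of the 58 members and replicate 4 the lowest for 29, where the same libraries were highest and lowest for 26.0% and 28.7% of all tested genes.

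**Figure D2:**
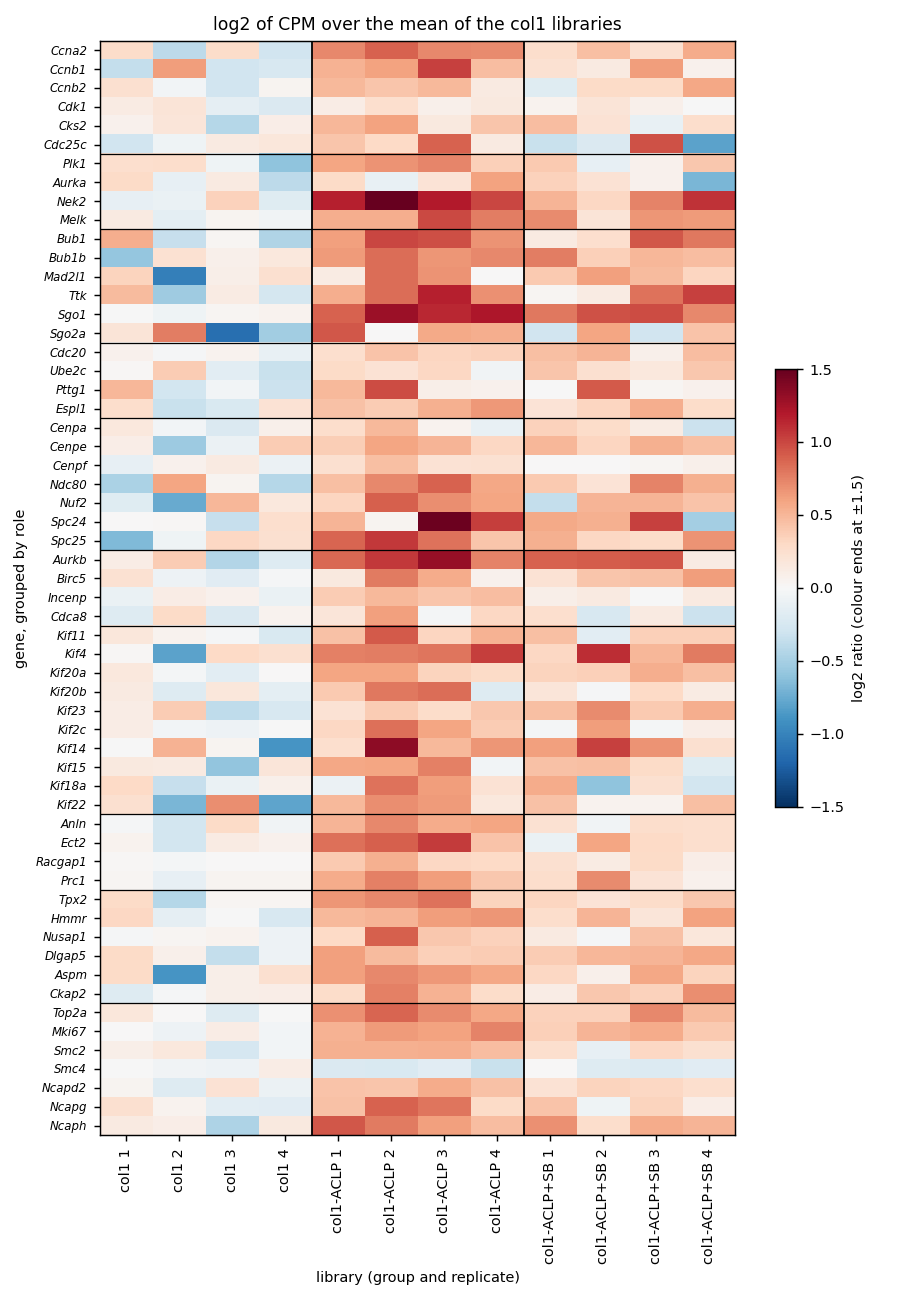
Colour gives the log2 ratio of each library's CPM to the mean of the 4 col1 libraries, with 1 row for each of the 58 genes, grouped by role, and 1 column for each library. The col1-ACLP columns are mostly red, the col1-ACLP+SB columns paler, and the Smc4 row is blue in all 4 col1-ACLP libraries.

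Among the genes that switch CDK1 on, cyclin A2 and cyclin B1 rose on ACLP and the kinase itself did not pass the test. Ccna2 (ENSMUSG00000027715, chromosome 3 from 36619014 to 36626299), the cyclin of S phase and early mitosis, had 9.47, 5.95, 9.43 and 6.41 CPM in the 4 col1 libraries, 12.9, 14.4, 12.9 and 12.8 CPM in the 4 col1-ACLP libraries and 9.39, 10.7, 9.25 and 11.5 CPM in the 4 col1-ACLP+SB libraries. All of its col1-ACLP libraries lay above both other groups, and its log2 fold change against col1 was 0.76 (SE 0.149, edgeR adjusted p = 0.000471). Ccnb1 (ENSMUSG00000041431, chromosome 13 from 100915158 to 100923078), the cyclin that carries CDK1 into the nucleus, had 5.27, 10.4, 5.52 and 5.71 CPM in the 4 col1 libraries, 9.65, 10.3, 13.7 and 9.31 CPM in the 4 col1-ACLP libraries and 7.88, 7.41, 10.4 and 7.04 CPM in the 4 col1-ACLP+SB libraries. Col1 replicate 2 stood at the level of the col1-ACLP libraries and the other 3 col1 libraries below all of them. Its log2 fold change was 0.67 (SE 0.194, edgeR adjusted p = 0.0157), and the call was lost without col1 replicate 1, 3 or 4 or col1-ACLP replicate 3 (edgeR adjusted p = 0.063, 0.0603, 0.0573 and 0.089). Ccnb2, the second mitotic B cyclin, had 7.20, 5.90, 4.97 and 6.25 CPM in the 4 col1 libraries, 8.52, 8.12, 8.55 and 6.69 CPM in the 4 col1-ACLP libraries and 5.38, 7.41, 7.44 and 9.09 CPM in the 4 col1-ACLP+SB libraries, and its groups overlapped (log2 fold change 0.39, 95% interval 0.0462 to 0.732, edgeR adjusted p = 0.117). Reads of its pseudogene Ccnb2-ps, counted at 3.04, 2.63 and 2.86 CPM on average in the col1, col1-ACLP and col1-ACLP+SB groups, could have been split with it.

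Cdk1 (ENSMUSG00000019942, chromosome 10 from 69170976 to 69188768), the kinase of mitotic entry, had 24.7, 25.8, 20.7 and 19.4 CPM in the 4 col1 libraries, 24.4, 27.1, 23.8 and 24.97 CPM in the 4 col1-ACLP libraries and 23.5, 25.8, 23.8 and 22.5 CPM in the 4 col1-ACLP+SB libraries. The 3 groups overlapped, with a log2 fold change of 0.15 on ACLP (95% interval -0.0498 to 0.344, edgeR adjusted p = 0.346), the second lowest of the 58. Cks2, the small subunit that docks CDK1 on its substrates, had 6.49, 7.07, 4.64 and 6.67 CPM in the 4 col1 libraries, 8.79, 9.45, 6.88 and 8.29 CPM in the 4 col1-ACLP libraries and 8.54, 7.24, 5.75 and 7.47 CPM in the 4 col1-ACLP+SB libraries. Its lowest col1-ACLP library lay inside the col1 range, and its log2 fold change of 0.42 did not pass the test (95% interval 0.0856 to 0.763, edgeR adjusted p = 0.0779). Cdc25c, the phosphatase that removes the inhibitory phosphates from CDK1, was scarce at 1.57, 1.83, 2.09 and 2.14 CPM in the col1 libraries, 2.53, 2.35, 3.51 and 2.09 CPM in the col1-ACLP libraries and 1.508, 1.64, 3.68 and 1.09 CPM in the col1-ACLP+SB libraries. Its wide spread on col1-ACLP+SB is set by replicate 3, and its log2 fold change on ACLP was 0.46 (95% interval -0.225 to 1.14, edgeR adjusted p = 0.409). With ALK5 inhibited, none of these 6 genes passed the test against col1, with log2 fold changes from 0.07 for Cdc25c to 0.39 for Ccna2.

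Among the mitotic kinases, Plk1, Nek2 and Melk rose on ACLP and Aurka did not pass the test. Nek2 (ENSMUSG00000026622, chromosome 1 from 191553556 to 191565162), which splits the paired centrosomes before spindle formation, had 2.45, 2.49, 3.40 and 2.35 CPM in the 4 col1 libraries, 5.98, 8.43, 6.11 and 5.35 CPM in the 4 col1-ACLP libraries and 3.81, 3.32, 4.47 and 5.69 CPM in the 4 col1-ACLP+SB libraries. No col1-ACLP library came near the col1 range, and the log2 fold change of 1.28 (SE 0.214, edgeR adjusted p = 7.51e-05) was the largest of the 58 genes. Plk1 (ENSMUSG00000030867, chromosome 7 from 121758662 to 121769096), the Polo kinase of mitotic entry and centrosome maturation, had 7.90, 7.97, 6.37 and 4.39 CPM in the 4 col1 libraries, 10.0, 10.6, 11.1 and 8.54 CPM in the 4 col1-ACLP libraries and 8.77, 6.10, 6.96 and 8.79 CPM in the 4 col1-ACLP+SB libraries. Its col1-ACLP libraries were above all col1 libraries by a narrow gap (log2 fold change 0.60, SE 0.175, edgeR adjusted p = 0.0164), and the call was lost without col1 replicate 4 or col1-ACLP replicate 3 (edgeR adjusted p = 0.073 and 0.0566). Melk, a kinase of proliferating progenitors, had a log2 fold change of 0.73 (edgeR adjusted p = 0.00439). Aurka, which builds the spindle poles, had 8.03, 6.09, 7.28 and 5.04 CPM in the 4 col1 libraries, 8.06, 6.13, 7.61 and 10.0 CPM in the 4 col1-ACLP libraries and 8.40, 7.68, 6.90 and 4.10 CPM in the 4 col1-ACLP+SB libraries. Its groups overlapped (log2 fold change 0.27, 95% interval -0.143 to 0.676, edgeR adjusted p = 0.426). With the inhibitor, Nek2 and Melk were still higher than on col1, at log2 fold changes of 0.70 and 0.57 (edgeR adjusted p = 0.0392 and 0.0446). These calls were lost in 11 and 14 of 18 alternatives, which do not include the test against the fold threshold. The call of Nek2 was lost without col1 replicate 1, 2 or 4, col1-ACLP replicate 1 or 3 or col1-ACLP+SB replicate 3 or 4 (edgeR adjusted p from 0.0511 to 0.162), and that of Melk without any single col1 library, col1-ACLP replicate 1, 2 or 4 or col1-ACLP+SB replicate 1, 3 or 4 (edgeR adjusted p from 0.0501 to 0.122).

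The spindle checkpoint and the guardians of centromeric cohesion had the highest median of the 10 role groups, a log2 fold change of 0.77, with 4 of 6 higher. Sgo1 (ENSMUSG00000023940, chromosome 17 from 53981814 to 53996361), the shugoshin that shields cohesin at centromeres, had 2.01, 1.93, 2.06 and 2.09 CPM in the 4 col1 libraries, 3.73, 4.92, 4.44 and 4.68 CPM in the 4 col1-ACLP libraries and 3.501, 3.92, 3.99 and 3.34 CPM in the 4 col1-ACLP+SB libraries. The col1 libraries lay close together, and all 8 libraries with ACLP were above them. Its log2 fold change was 1.13 on ACLP and 0.87 with the inhibitor (SE 0.205 and 0.205, edgeR adjusted p = 0.000208 and 0.0059). Bub1b (ENSMUSG00000040084, chromosome 2 from 118428692 to 118472072), which encodes the checkpoint protein BUBR1, had 4.12, 7.20, 6.49 and 6.85 CPM in the 4 col1 libraries, 9.62, 11.0, 9.78 and 10.1 CPM in the 4 col1-ACLP libraries and 10.5, 7.92, 8.73 and 8.50 CPM in the 4 col1-ACLP+SB libraries. Again all 8 libraries with ACLP were above all 4 without it, with log2 fold changes of 0.72 and 0.53 (edgeR adjusted p = 0.00172 and 0.0332). The call with the inhibitor was lost without col1 replicate 1 or 3 or col1-ACLP+SB replicate 1, 3 or 4 (edgeR adjusted p between 0.0501 and 0.133).

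The checkpoint kinases Bub1 and Ttk had log2 fold changes of 0.82 and 0.83 on ACLP (edgeR adjusted p = 0.00949 and 0.0315), and that of Ttk was lost without col1 replicate 2 or 4 or col1-ACLP replicate 2 or 3 (edgeR adjusted p from 0.0654 to 0.121). Mad2l1, whose product MAD2 is the checkpoint's diffusible inhibitor of CDC20, had 9.36, 3.65, 7.92 and 8.76 CPM in the 4 col1 libraries, 8.09, 13.3, 11.9 and 7.44 CPM in the 4 col1-ACLP libraries and 9.73, 11.3, 10.3 and 9.26 CPM in the 4 col1-ACLP+SB libraries. Both the col1 and the col1-ACLP libraries were widely spread and overlapped, with a log2 fold change of 0.46 (95% interval 0.0143 to 0.896, edgeR adjusted p = 0.161). It passed without the filter on low counts (edgeR adjusted p = 0.0349). Sgo2a, the second shugoshin, was among the scarcest members and had a log2 fold change of 0.55 with a 95% interval of -0.215 to 1.31 (edgeR adjusted p = 0.369). Its gene body shares 22986 bases with Kctd18 on the other strand (mean levels over the 12 libraries 1.91 CPM for Sgo2a and 29.5 CPM for Kctd18).

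Of the 4 genes that control the end of mitosis, Cdc20 and Espl1 rose on ACLP, and the median log2 fold change of 0.40 was the lowest of the 10 role groups. Cdc20 (ENSMUSG00000006398, chromosome 4 from 118290098 to 118294549), the activator through which the APC/C acts in metaphase, had 11.6, 10.9, 11.4 and 10.2 CPM in the 4 col1 libraries, 13.1, 14.9, 13.8 and 14.1 CPM in the 4 col1-ACLP libraries and 15.1, 15.7, 11.6 and 15.1 CPM in the 4 col1-ACLP+SB libraries. Each group with ACLP lay above the col1 libraries, though by little, and the log2 fold change was 0.34 on ACLP and 0.38 with the inhibitor (edgeR adjusted p = 0.04 and 0.0341). Each of these calls was lost in 10 of 18 alternatives. For the first these included leaving out any single col1 library or col1-ACLP replicate 2, 3 or 4 (edgeR adjusted p from 0.0505 to 0.12), and for the second col1 replicate 2, 3 or 4 or col1-ACLP+SB replicate 1, 2 or 4 (edgeR adjusted p from 0.0551 to 0.101). Espl1, the separase that cuts cohesin, rose with a log2 fold change of 0.50 (edgeR adjusted p = 0.00965). Ube2c, the ubiquitin-conjugating enzyme of the APC/C, and Pttg1, the securin that holds separase back, had log2 fold changes of 0.20 and 0.46 (edgeR adjusted p = 0.423 and 0.259).

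At the centromere and kinetochore, 3 of 7 members rose on ACLP. Ndc80 (ENSMUSG00000024056, chromosome 17 from 71803095 to 71833852), the microtubule-binding subunit of the outer kinetochore, had 2.63, 5.48, 3.76 and 2.72 CPM in the 4 col1 libraries, 5.01, 6.00, 6.71 and 5.45 CPM in the 4 col1-ACLP libraries and 4.78, 4.19, 6.09 and 5.29 CPM in the 4 col1-ACLP+SB libraries. Col1 replicate 2 lay inside the col1-ACLP range and the other col1 libraries below it. The log2 fold change of 0.67 (SE 0.218, edgeR adjusted p = 0.033) was lost without col1 replicate 1, 3 or 4 or col1-ACLP replicate 2 or 3 (edgeR adjusted p from 0.0554 to 0.113) and with library size alone (0.051). Its partners in the NDC80 complex, Nuf2, Spc24 and Spc25, had log2 fold changes of 0.64, 0.86 and 0.81. Of these, Spc25 passed the test (edgeR adjusted p = 0.0157, and 0.0635 without col1 replicate 1 or 0.0678 without col1-ACLP replicate 2). For Nuf2 and Spc24 the edgeR adjusted p was 0.0645 and 0.0766. Nuf2 passed without the filter on low counts (edgeR adjusted p = 0.042), by DESeq2 (DESeq2 adjusted p = 0.0474), and without col1 replicate 3 or col1-ACLP+SB replicate 1 (edgeR adjusted p = 0.0192 and 0.0438), and Spc24 without col1-ACLP replicate 2 (edgeR adjusted p = 0.0309).

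Cenpf (ENSMUSG00000026605, chromosome 1 from 189372803 to 189420283), a large kinetochore and G2 marker protein, had 10.7, 12.2, 12.8 and 11.0 CPM in the 4 col1 libraries, 13.8, 15.9, 13.7 and 13.7 CPM in the 4 col1-ACLP libraries and 11.7, 11.8, 12.0 and 12.3 CPM in the 4 col1-ACLP+SB libraries. All of its col1-ACLP libraries were above all libraries of both other groups, yet the log2 fold change of 0.29 missed the threshold (95% interval 0.0608 to 0.514, edgeR adjusted p = 0.074, and 0.0447 with DESeq2). Cenpa, the histone variant that marks the centromere, had 8.89, 7.75, 6.85 and 8.41 CPM in the 4 col1 libraries, 9.59, 11.2, 8.25 and 7.37 CPM in the 4 col1-ACLP libraries and 10.2, 9.63, 8.70 and 6.38 CPM in the 4 col1-ACLP+SB libraries, and its groups overlapped (log2 fold change 0.19, 95% interval -0.14 to 0.521, edgeR adjusted p = 0.492). Cenpe, a kinetochore motor that helps chromosomes congress, had log2 fold changes of 0.45 on ACLP and 0.45 with the inhibitor (edgeR adjusted p = 0.0314 and 0.0488). Its call on ACLP was lost without col1 replicate 2 or 3 or col1-ACLP replicate 2 or 3 (edgeR adjusted p from 0.0778 to 0.11) and with library size alone (0.0598). The call with the inhibitor was lost without any of 10 single libraries, all but col1 replicate 4 and col1-ACLP+SB replicate 2 (edgeR adjusted p from 0.0507 to 0.157).

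Of the chromosomal passenger complex, which corrects faulty attachments and later marks the cleavage plane, Aurkb and Incenp rose. Aurkb (ENSMUSG00000020897, chromosome 11 from 68936473 to 68942490), its kinase, had 4.43, 5.35, 3.03 and 3.601 CPM in the 4 col1 libraries, 7.48, 8.59, 10.2 and 6.87 CPM in the 4 col1-ACLP libraries and 7.57, 7.71, 7.83 and 4.46 CPM in the 4 col1-ACLP+SB libraries. The col1-ACLP libraries were all above col1, and with the inhibitor 3 libraries lay above col1 while replicate 4 was inside the col1 range. Log2 fold changes were 1.01 and 0.75 (SE 0.2 and 0.2, edgeR adjusted p = 0.000552 and 0.0155), and the second was lost without col1 replicate 3 or 4 or col1-ACLP+SB replicate 3 (edgeR adjusted p = 0.0664, 0.0555 and 0.0554). Incenp, the scaffold, rose on ACLP by a log2 fold change of 0.44 (edgeR adjusted p = 0.00128) and had 0.09 against col1 with the inhibitor. Birc5 (survivin), which docks the complex at centromeres, had 6.70, 5.43, 5.07 and 5.62 CPM in the 4 col1 libraries, 6.29, 9.78, 8.41 and 5.99 CPM in the 4 col1-ACLP libraries and 6.63, 7.58, 7.73 and 8.83 CPM in the 4 col1-ACLP+SB libraries. Its col1 and col1-ACLP libraries overlapped (log2 fold change 0.42, 95% interval 0.0706 to 0.766, edgeR adjusted p = 0.0932, and 0.0479 without col1-ACLP replicate 4). Cdca8 (borealin) had a log2 fold change of 0.29 (edgeR adjusted p = 0.307) and shares 2264 bases with 9930104L06Rik on the other strand (mean level 22.1 CPM).

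**Figure D3:**
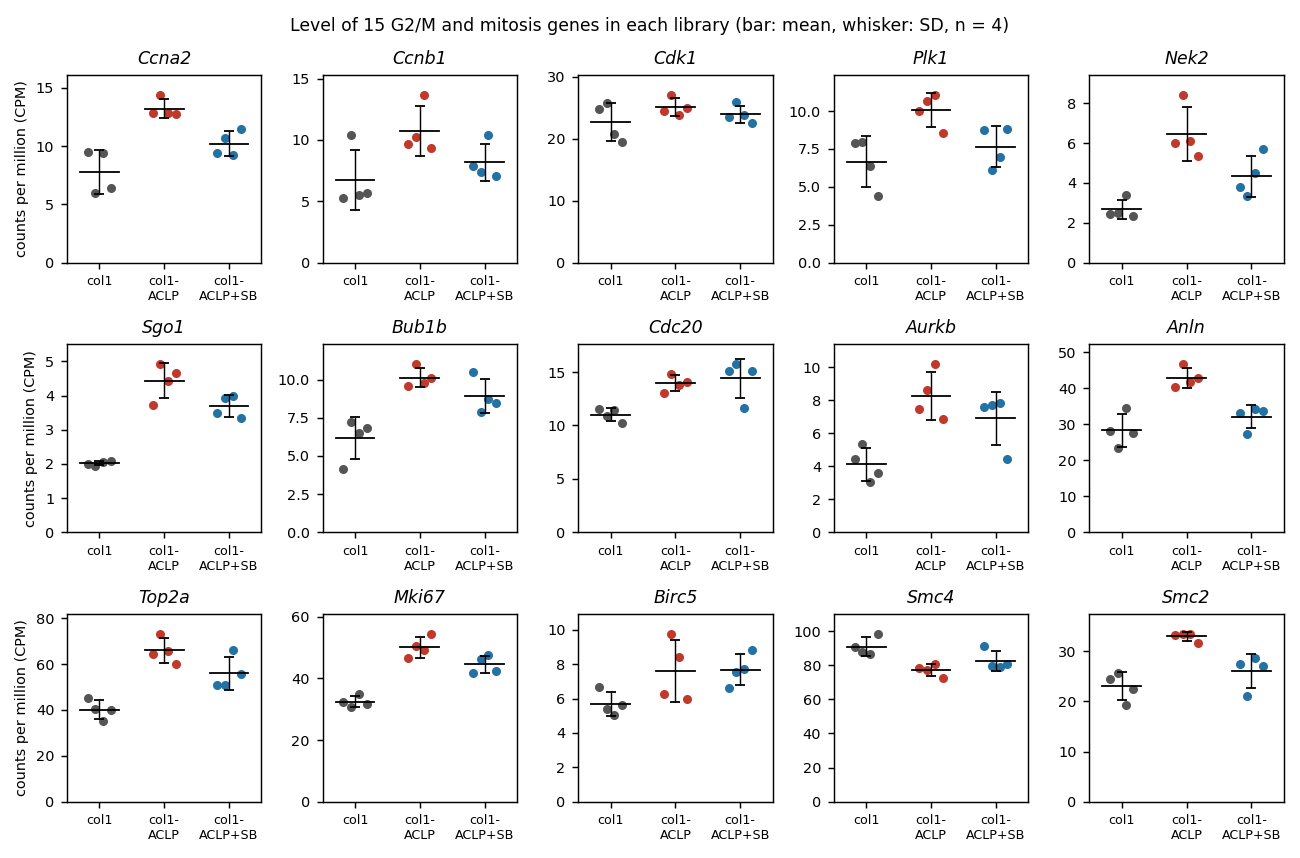
CPM of 15 of the genes in each library, with 4 points per group in the order of the replicates, the group mean as a bar and the SD as a whisker. Nek2, Sgo1, Bub1b, Aurkb, Top2a and Mki67 have every col1-ACLP point above every col1 point, Cdk1 and Birc5 overlap between the groups, and Smc4 has its 4 col1-ACLP points below its 4 col1 points.

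All 10 kinesins, the motors that build and separate the spindle, had positive estimates on ACLP, and 6 passed the test. Kif11 (ENSMUSG00000012443, chromosome 19 from 37364851 to 37410307), the motor that pushes the spindle poles apart, had 10.5, 9.63, 9.16 and 7.94 CPM in the 4 col1 libraries, 12.6, 17.6, 11.6 and 13.3 CPM in the 4 col1-ACLP libraries and 12.8, 8.35, 11.9 and 11.9 CPM in the 4 col1-ACLP+SB libraries. Its col1-ACLP libraries were above all col1 libraries, with replicate 2 highest, and the log2 fold change was 0.57 (SE 0.148, edgeR adjusted p = 0.00712, and 0.059 without col1-ACLP replicate 2). Kif23 (ENSMUSG00000032254, chromosome 9 from 61823187 to 61854056), the motor of the centralspindlin complex at the midzone, had 8.24, 9.92, 5.82 and 6.41 CPM in the 4 col1 libraries, 8.82, 9.92, 9.18 and 10.0 CPM in the 4 col1-ACLP libraries and 10.4, 12.4, 9.95 and 11.1 CPM in the 4 col1-ACLP+SB libraries. It was highest with the inhibitor, where all libraries were above col1. Its log2 fold change was 0.32 on ACLP (edgeR adjusted p = 0.168, and 0.0264 without col1 replicate 2, the highest col1 library) and 0.53 with the inhibitor (edgeR adjusted p = 0.026). The latter was lost without col1 replicate 3 or 4 or col1-ACLP+SB replicate 2 or 4 (edgeR adjusted p from 0.0549 to 0.106).

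Kif4, a chromosome-bound motor, had the largest change of the kinesins on ACLP, a log2 fold change of 0.84 (edgeR adjusted p = 0.00465), and it was also higher with the inhibitor at 0.70 (edgeR adjusted p = 0.0331), a call lost without col1 replicate 1 or 2 or col1-ACLP+SB replicate 2 or 4 (edgeR adjusted p from 0.0617 to 0.141). Kif20a, a motor of the central spindle, rose by a log2 fold change of 0.46 on ACLP and 0.43 with the inhibitor (edgeR adjusted p = 0.00315 and 0.0105), and both calls held in all 18 alternatives. Kif14, Kif2c and Kif20b rose on ACLP with log2 fold changes of 0.75, 0.54 and 0.52, and each call was lost without col1-ACLP replicate 2 (edgeR adjusted p = 0.27, 0.163 and 0.155). Single libraries whose removal also ended the call were col1 replicates 1, 3 and 4, col1-ACLP replicate 4 and col1-ACLP+SB replicates 1 and 3 for Kif14 (edgeR adjusted p up to 0.157), col1 replicates 2, 3 and 4 and col1-ACLP replicate 3 for Kif2c (up to 0.0846), and col1 replicates 2 and 4 and col1-ACLP replicate 3 for Kif20b (up to 0.163). With library size alone all 3 calls were lost (edgeR adjusted p = 0.0654, 0.063 and 0.0641). Kif15, Kif18a and Kif22 had estimates of 0.50, 0.43 and 0.52 (edgeR adjusted p = 0.103, 0.305 and 0.142). Without col1 replicate 3, where it was highest among the col1 libraries, Kif22 had an edgeR adjusted p of 0.00784 (0.0241 without the filter on low counts), and without col1-ACLP replicate 4 Kif15 had one of 0.0343.

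The 4 cytokinesis genes all rose on ACLP. Anln (ENSMUSG00000036777, chromosome 9 from 22243308 to 22300484), the anillin scaffold of the contractile ring, had 28.1, 23.4, 34.5 and 27.4 CPM in the 4 col1 libraries, 40.3, 46.7, 41.6 and 42.8 CPM in the 4 col1-ACLP libraries and 33.1, 27.3, 34.1 and 33.8 CPM in the 4 col1-ACLP+SB libraries. Its col1-ACLP libraries were above all others in both groups, and the log2 fold change was 0.60 (SE 0.0975, edgeR adjusted p = 5.43e-05). Ect2, the exchange factor that activates RhoA at the cleavage furrow, Prc1, which bundles the midzone microtubules, and Racgap1, the partner of Kif23, had log2 fold changes of 0.82, 0.60 and 0.39 (edgeR adjusted p = 0.0008, 0.00126 and 0.000459). All 4 calls held in all 18 alternatives, which leave out the test against the fold threshold. With the inhibitor none of the 4 passed the test against col1, at log2 fold changes from 0.18 for Anln to 0.33 for Prc1.

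The 6 genes of spindle assembly and microtubule binding also all rose on ACLP. Log2 fold changes were 0.64 for Tpx2, which activates Aurora A at spindle poles, 0.64 for Aspm, a spindle pole protein, and 0.57 for Hmmr, a spindle-associated hyaluronan receptor (edgeR adjusted p = 0.000367, 0.0148 and 0.00762). Smaller changes were found for the microtubule-binding Nusap1, Ckap2 and Dlgap5, at 0.51, 0.47 and 0.46 (edgeR adjusted p = 0.0156, 0.0177 and 0.0232). Without col1-ACLP replicate 2 these last 3 were no longer called (edgeR adjusted p = 0.128, 0.109 and 0.0529), nor was Ckap2 without col1 replicate 1 or Dlgap5 without col1 replicate 3 or 4 or col1-ACLP replicate 1 (edgeR adjusted p from 0.0598 to 0.0935). With the inhibitor, Dlgap5 was higher than on col1 at 0.49 (edgeR adjusted p = 0.0257), which was lost without col1 replicate 3 or 4 or col1-ACLP+SB replicate 3 or 4 (edgeR adjusted p from 0.0566 to 0.105).

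Of the 7 chromosome structure genes 6 rose on ACLP and Smc4 fell. Top2a (ENSMUSG00000020914, chromosome 11 from 98883769 to 98915015), the topoisomerase that untangles sister chromatids, had 45.0, 40.4, 34.97 and 40.02 CPM in the 4 col1 libraries, 64.5, 73.2, 65.7 and 60.2 CPM in the 4 col1-ACLP libraries and 51.0, 50.9, 66.0 and 55.7 CPM in the 4 col1-ACLP+SB libraries. All 8 libraries with ACLP were above the 4 col1 libraries. Its log2 fold change was 0.72 on ACLP and 0.48 with the inhibitor (SE 0.0864 and 0.0863, edgeR adjusted p = 6.86e-07 and 0.000341). Mki67 (ENSMUSG00000031004, chromosome 7 from 135291513 to 135318090), the Ki-67 protein that coats mitotic chromosomes and is used to stain cycling cells, had 32.5, 30.8, 34.9 and 31.6 CPM in the 4 col1 libraries, 46.5, 50.4, 49.1 and 54.5 CPM in the 4 col1-ACLP libraries and 41.6, 46.3, 47.7 and 42.6 CPM in the 4 col1-ACLP+SB libraries. The 3 groups again fell in the order col1, col1-ACLP+SB, col1-ACLP by their means, and col1 overlapped with neither of the others. Log2 fold changes were 0.63 and 0.46 (SE 0.0725 and 0.0724, edgeR adjusted p = 3.33e-07 and 6.48e-05).

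The condensin subunits, which compact the mitotic chromosome, split. Smc2 (ENSMUSG00000028312, chromosome 4 from 52439243 to 52488260), 1 of the 2 ATPase arms, had 24.5, 25.7, 19.3 and 22.4 CPM in the 4 col1 libraries, 33.3, 33.4, 33.5 and 31.7 CPM in the 4 col1-ACLP libraries and 27.4, 21.1, 28.6 and 27.1 CPM in the 4 col1-ACLP+SB libraries, and its col1-ACLP libraries were above all libraries of both other groups (log2 fold change 0.52, SE 0.0978, edgeR adjusted p = 0.000318). Smc4 (ENSMUSG00000034349, chromosome 3 from 68912071 to 68941956), the other arm, had 90.8, 87.8, 86.3 and 98.4 CPM in the 4 col1 libraries, 78.4, 77.4, 80.5 and 72.4 CPM in the 4 col1-ACLP libraries and 91.2, 79.5, 78.7 and 80.7 CPM in the 4 col1-ACLP+SB libraries. Its col1-ACLP libraries were all below col1, with a log2 fold change of -0.24 (SE 0.0613, edgeR adjusted p = 0.00716), and this call held in all 18 alternatives. The non-SMC subunits Ncapd2, Ncapg and Ncaph rose, with log2 fold changes of 0.46, 0.62 and 0.70 (edgeR adjusted p = 0.000661, 0.0294 and 0.00221). The call of Ncapg was lost without col1 replicate 3 or 4 or col1-ACLP replicate 2 or 3 (edgeR adjusted p from 0.0755 to 0.119) and without the filter on low counts (0.0689). Per length, Smc4 was also the most abundant member, at 17.4 FPKM (CPM divided by gene length in kilobases) on col1 (the 82.7th percentile of tested genes), while Smc2 was at 4.20, Ncaph at 1.31 and Ncapg at 0.499 FPKM.

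**Figure D4:**
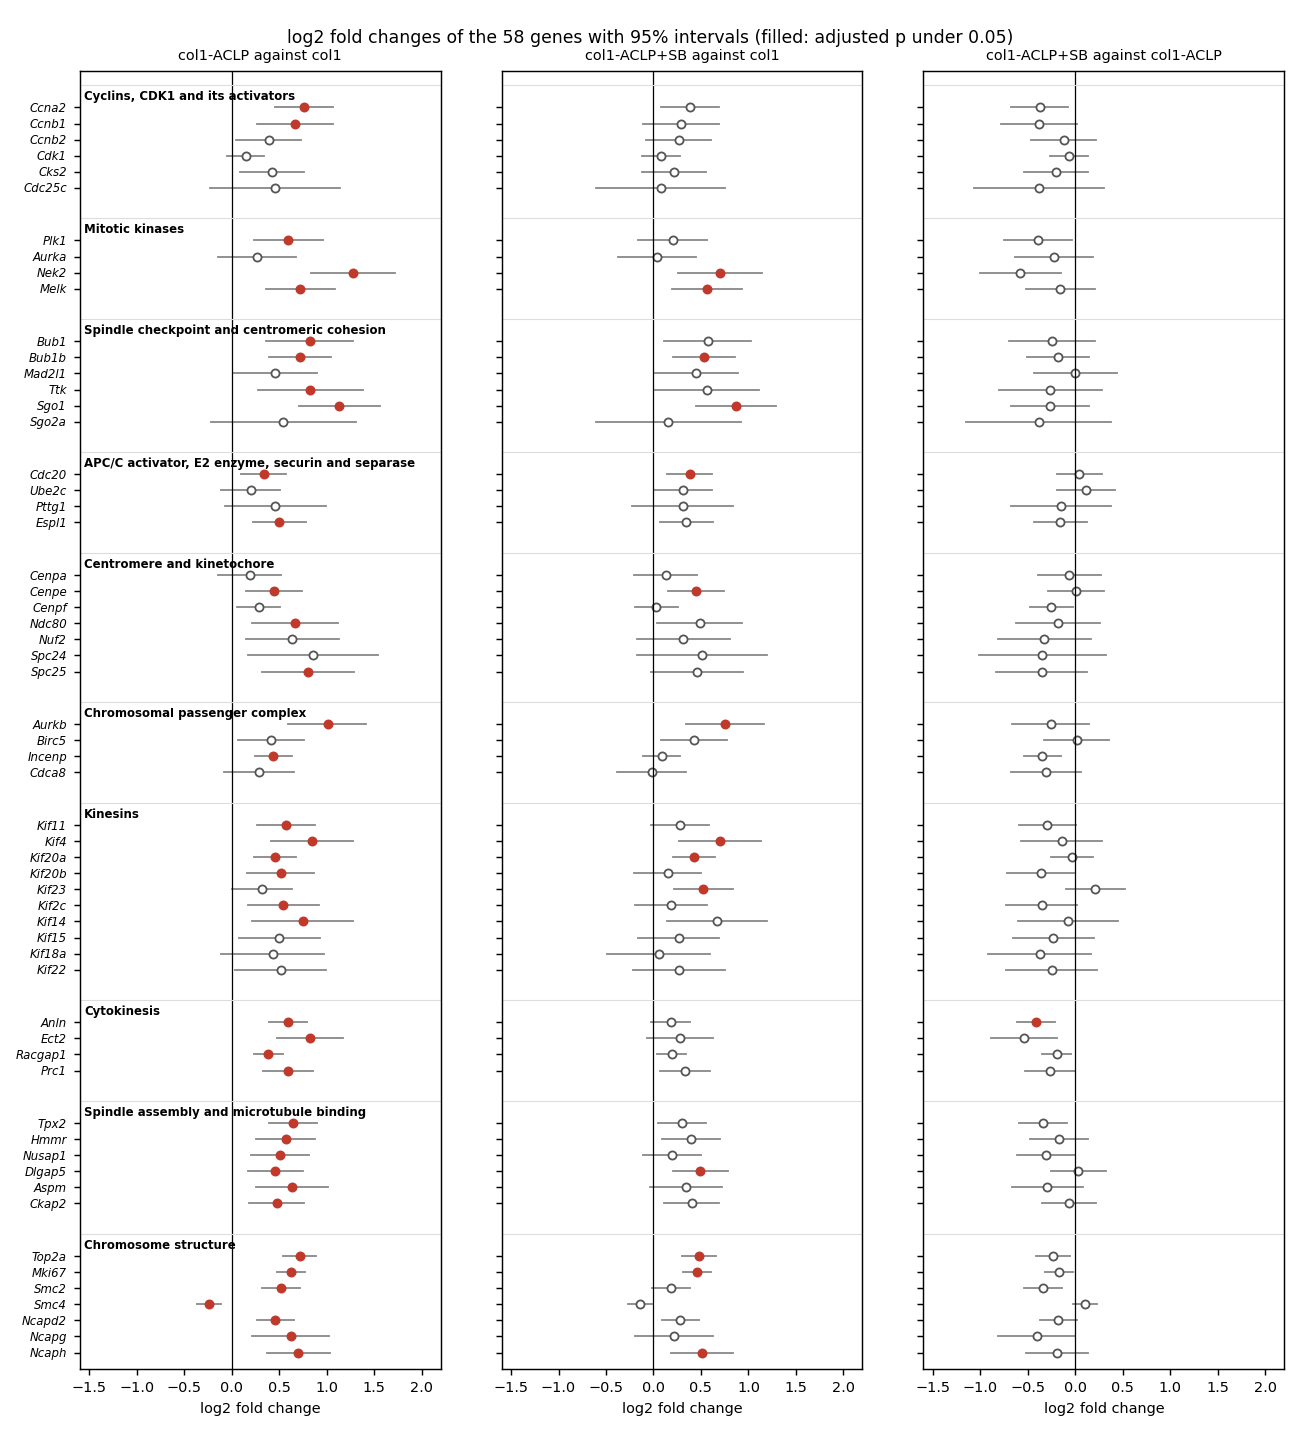
Log2 fold change (horizontal axis) of each of the 58 genes, grouped by role, in the 3 comparisons, with its 95% interval as a line. Filled points have an adjusted p under 0.05. On ACLP 39 points are filled and only Smc4 lies left of 0, with the inhibitor against col1 14 are filled, and between the ACLP groups 1, Anln, is filled.

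With ALK5 inhibited, part of the list was still higher than on collagen alone. Against col1, 14 of 58 members (24.1%) were higher in col1-ACLP+SB, against 4.60% of all tested genes, and none was lower, against 4.54%. At an unadjusted p under 0.05 there were 29 higher and 1 lower by edgeR, and DESeq2 called 15 higher and 0 lower. The share of all tested genes was not counted under either of these rules. The 14 were Nek2, Melk, Bub1b, Sgo1, Cdc20, Cenpe, Aurkb, Kif4, Kif20a, Kif23, Dlgap5, Top2a, Mki67 and Ncaph. The call of Ncaph (log2 fold change 0.51, edgeR adjusted p = 0.0444) was lost without any of 10 single libraries, all but col1-ACLP replicate 4 and col1-ACLP+SB replicate 2 (edgeR adjusted p from 0.051 to 0.166). Of these 14, Nek2, Sgo1, Aurkb and Kif4 were past a log2 fold change of 0.58, as were 1.27% of all tested genes. The median log2 fold change was 0.31, beside 0.00459 over all tested genes. Estimates were above 0 for 56 of 58 members, the exceptions being Cdca8 (-0.02) and Smc4 (-0.14), and for 50.9% of all tested genes. In 6 members, none of them called, the sign of the estimate changed in at least 1 alternative (Cdc25c, Aurka, Sgo2a, Cenpf, Cdca8 and Kif18a). In 15 members all col1-ACLP+SB libraries lay above all col1 libraries, as in 6.69% of all tested genes. Calls of Sgo1, Kif20a, Top2a and Mki67 held in all 18 alternatives and those of the other 10 did not. Leaving out 1 library added calls for Ccnb1, Ube2c, Ndc80 and Kif14 (without col1 replicate 2, edgeR adjusted p from 0.0188 to 0.0425), Bub1, Tpx2 and Hmmr (without col1 replicate 1, from 0.0204 to 0.0433), Ncapd2 (without col1 replicate 3, 0.0175) and Ckap2 (without col1-ACLP+SB replicate 1, 0.0362). The count of 14 was 5 when the 8 libraries of these groups were fitted alone, 7 without col1 replicate 3 or 4 or col1-ACLP+SB replicate 3, and 5 without col1-ACLP+SB replicate 4.

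The inhibitor itself, compared on the same ACLP matrix, left 1 member past the threshold. Anln was lower in col1-ACLP+SB than in col1-ACLP, with a log2 fold change of -0.42 (SE 0.0971, edgeR adjusted p = 0.0259), where 0.905% of all tested genes were lower, and no member was higher, where 0.571% were. This call was lost without col1-ACLP replicate 2, 3 or 4 or col1-ACLP+SB replicate 2 or 4 (edgeR adjusted p = 0.0989, 0.0581, 0.0739, 0.0969 and 0.0547). The estimate was below 0 for 51 of 58 members and above 0 for 7, where 51.2% of all tested genes were above 0. The median was -0.24, beside 0.00485 over all tested genes. At an unadjusted p under 0.05 by edgeR, 15 members were lower and 0 higher. The share of all tested genes was not counted under that rule. The sign changed in at least 1 alternative in 10 members, none of them called (Mad2l1, Cdc20, Pttg1, Cenpa, Cenpe, Birc5, Kif20a, Kif14, Dlgap5 and Ckap2). In 7 members (Ccna2, Cenpf, Incenp, Anln, Racgap1, Smc2 and Ncapd2) all 4 col1-ACLP+SB libraries lay below all 4 col1-ACLP libraries, as in 4.53% of all tested genes. Incenp had a log2 fold change of -0.35 (95% interval -0.546 to -0.157, edgeR adjusted p = 0.0605) and Smc2 of -0.34 (95% interval -0.539 to -0.137, edgeR adjusted p = 0.0848). DESeq2 called 4 members lower, Anln, Incenp, Ect2 and Smc2, and 0 higher, with the share of all tested genes not counted by DESeq2. Leaving out 1 library added Incenp (without col1 replicate 2, edgeR adjusted p = 0.0457) and Top2a (without col1-ACLP+SB replicate 3, edgeR adjusted p = 0.0432). The 95% interval of the difference was -0.755 to -0.0375 for Plk1 and -0.665 to 0.142 for Aurkb (log2). Each pair of comparisons shares a group of 4 libraries, so their values are not independent.

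Estimates between the ACLP groups ran from -0.58 to 0.21. Kif23 stood highest, at 0.21 (95% interval -0.103 to 0.519), Ube2c at 0.11, Smc4 at 0.10, Cdc20 at 0.04, Dlgap5 at 0.03, Birc5 at 0.01 and Cenpe at 0.00, none past the test. At the other end were Nek2 at -0.58 (95% interval -1.01 to -0.151, edgeR adjusted p = 0.192) and Ect2 at -0.54 (95% interval -0.887 to -0.197, edgeR adjusted p = 0.112). By role, the median was lowest for the cytokinesis genes, at -0.34, and nearest to 0 for the APC/C activator, E2 enzyme, securin and separase, at -0.055.

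**Figure D5:**
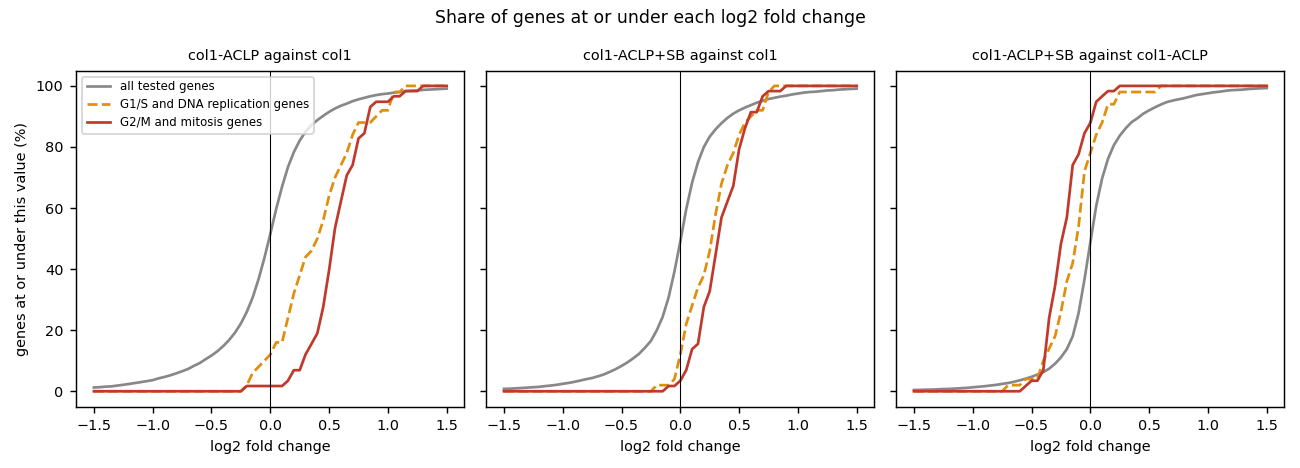
Percent of genes at or under each log2 fold change in the 3 comparisons, for the 58 G2/M and mitosis genes (red), 50 G1/S and DNA replication genes (dashed) and all 16465 tested genes (grey). Through the middle of its range the red line lies to the right of the grey line in both comparisons with col1, with medians of 0.53 and 0.31. Between the ACLP groups it lies to the left there, with a median of -0.24. The lines cross in the tails. On ACLP against col1, 100% of members and 98.7% of all tested genes are at or under 1.3.

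Other genes of the mitotic programme were taken from lists written with earlier results of these data known. Of 70 further mitotic genes, 14 (20%) were higher on ACLP and 2 lower, against 9.52% and 8.41% of all tested genes. Their median log2 fold change was 0.28. Pbk, a mitotic kinase, was at 1.28 (edgeR adjusted p = 0.000113), and Foxm1, the transcription factor of many G2/M genes, at 0.51 (edgeR adjusted p = 0.00307). The falls were Ccnf, the F-box cyclin of G2, at -0.49 and Psrc1, a microtubule-binding target of p53, at -0.52 (edgeR adjusted p = 0.00245 and 0.000378). None of 15 APC/C subunits passed edgeR's or DESeq2's test (median -0.03). At an unadjusted p under 0.05 by edgeR 3 of them were higher and 2 lower, a rule under which all tested genes were not counted. Of 10 genes of cohesin and its loaders only Mau2 passed the test, at -0.19 (median 0.02).

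Among 21 factors of the DREAM, MuvB, E2F and NF-Y families, which regulate cell cycle promoters, 4 (19%) were higher on ACLP and none lower. The shares of all tested genes were 9.52% and 8.41%. The median of these factors was 0.13. The 4 were Lin9, E2f2, E2f7 and Nfyc, at log2 fold changes of 0.41, 1.39, 1.00 and 0.32 (edgeR adjusted p = 0.0494, 0.0324, 0.00835 and 0.0137). Of 14 brakes on the G2/M step and p53 targets, 1 (7.14%) was higher on ACLP and 3 lower, against 9.52% and 8.41% of all tested genes. Pkmyt1, the kinase that inhibits CDK1, was higher at 0.47 (edgeR adjusted p = 0.0314). Cdkn1a (p21), Btg2 and Trp53inp1 were lower at -0.13, -0.59 and -0.31 (edgeR adjusted p = 0.0434, 0.00728 and 6.03e-05). Of 50 G1/S and DNA replication genes 23 (46%) were higher on ACLP and none was lower (median 0.40), against 9.52% and 8.41% of all tested genes. With the inhibitor 9 (18%) were higher than on col1 (median 0.27), against 4.60%. Between the ACLP groups 1 was lower (median -0.13), where 0.905% of all tested genes were.

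Members differed in how abundant they were. On col1 the median member had 1.29 FPKM, below the median of 3.92 FPKM over all tested genes, and 8 members were above that median. After Smc4, Cks2 was the most abundant per length at 8.98 FPKM, followed by Cdc20 at 5.90 and Cdk1 at 4.59, and the scarcest was Sgo2a at 0.228 FPKM. The lowest count of a member in a library was 24 and the median count was 287. The coefficient of variation between replicates had a median over members of 17.3% in col1, 13.8% with ACLP and 14.7% with ACLP and the inhibitor. It ran on col1 from 1.37% for Racgap1 to 54.9% for Sgo2a. Genes on opposite strands share bases with Ccna2 (Exosc9, 863 bases), Prc1 (Rccd1, 21810 bases), Kif20a (Cdc23, 2327 bases) and several others, and since the strand setting of the counting is not given in the sources used here, reads of such pairs could have been counted for either.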

How the data were processed

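Poly(A) RNA of 10T1/2 cells was sequenced in 12 libraries, 4 in each group, which the study calls biological replicates. Groups were taken from the labels. The authors mapped paired-end reads with HISAT2 and deposited raw read counts per gene, not normalized, with 1 column for each library. The counting tool, its strand setting and its handling of shared reads are not given in the sources used here. From these counts, edgeR 4.0.16 in R 4.3.3 was used for the tests. Genes with low counts were removed with filterByExpr, which kept 16465 of 56748, libraries were scaled by TMM, and a single fit held all 12 libraries, with a mean for each group. The quasi-likelihood test (glmQLFit and glmQLFTest) was two-sided, and p-values were adjusted by Benjamini-Hochberg over all genes tested, with calls at an adjusted p under 0.05 and, as a second rule, a log2 fold change beyond 0.58. The script was tested on simulated data. Intervals are 95% intervals of the fitted log2 fold change.

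Every member could be named. Values in each library were given for 20 members chosen by role and for those with the largest or smallest change on ACLP or the highest level per length, and for Smc2 in addition, chosen after its values were seen. Members and lists were chosen with earlier results of these data known. Alternatives were other scalings (edgeR's RLE size factors, library size alone), no filter, only the groups compared, DESeq2 1.42.0, a replicate block, a test against the fold threshold, and each library left out. Replicate pairs differed by more than sampling noise, so each library was counted once. Same-numbered libraries did not deviate together, with correlations from -0.0372 to 0.036. FPKM was computed from the gene lengths in the deposited table.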

Additional observations from a re-analysis of the deposited data

Results flagged for a closer look

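In 9 cases, 1 of the 4 libraries of a group stood apart from the other 3 in a gene whose values are given for each library. By chance about 1 in 20 groups of 4 is picked out in this way. Over all 58 genes, 5 were picked out among the col1 libraries, 6 among those with ACLP and 8 among those with ACLP and the inhibitor, or 8.62%, 10.3% and 13.8%, beside 5.54%, 5.10% and 5.85% of all tested genes.

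On col1, Ccnb1 was at 10.43 CPM in replicate 2 and at 5.269 to 5.714 CPM in the other libraries. Nek2 on col1 was at 3.397 CPM in replicate 3 and at 2.346 to 2.488 CPM in the others. On col1-ACLP, Ccna2 was at 14.42 CPM in replicate 2, with the others at 12.75 to 12.88 CPM. Cenpf was at 15.94 CPM in the same library, with the others at 13.65 to 13.77 CPM. Smc2 was at 31.69 CPM in replicate 4, below the others at 33.34 to 33.51 CPM. On col1-ACLP+SB, Cdc20 was at 11.64 CPM in replicate 3, below the others at 15.06 to 15.73 CPM. Aurkb was at 4.462 CPM in replicate 4, below 7.57 to 7.828 CPM. Anln was at 27.3 CPM in replicate 2, below 33.07 to 34.09 CPM. Smc4 was at 91.24 CPM in replicate 1, above 78.66 to 80.68 CPM.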

How the results depend on the processing

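Between col1-ACLP and col1 no member's estimate changed sign in the 18 alternatives. It did in 6 members with the inhibitor against col1 and in 10 between the ACLP groups, none of them called. Among the members whose log2 fold change in that comparison is given above, with 1 library left out the estimate against col1 ran from -0.4278 (without col1-ACLP+SB replicate 3) to 0.2725 for Cdc25c and from -0.1234 to 0.0923 (without col1 replicate 2) for Cdca8. Between the ACLP groups it ran from -0.005254 (without col1-ACLP+SB replicate 2) to 0.1326 for Cdc20, from -0.001476 (without col1-ACLP replicate 3) to 0.08741 for Dlgap5, from -0.08759 (without col1-ACLP replicate 4) to 0.1568 for Birc5 and from -0.03802 (without col1-ACLP replicate 4) to 0.0542 for Cenpe. Cdc25c was at -0.06439 with the replicate block, and Cenpe at -0.005973 with the block and -0.0006548 without the filter.

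Between col1-ACLP and col1, 24 of the 39 calls held in all 18 alternatives, 15 were lost in at least 1, and 9 of 19 uncalled members were gained in at least 1. Besides calls that changed with a library left out, library size alone lost Ndc80, Cenpe, Kif2c, Kif20b, Kif14 and Cdc20 (edgeR adjusted p from 0.051 to 0.0886), the lack of a filter lost Ncapg, Kif2c and Cdc20 (0.0689 to 0.0741) and gained Kif22, Mad2l1 and Nuf2 (0.0241 to 0.042), fitting only the groups compared lost Kif14 (0.0531), and DESeq2 gained Cenpf and Nuf2 (DESeq2 adjusted p = 0.0447 and 0.0474). The count of members past the fold threshold was 1 when the fold itself was tested, instead of 23. With 1 library left out, 26 to 38 members were higher, 17 to 26 were past the fold threshold, and the median log2 fold change was 0.49 to 0.59. Between col1-ACLP+SB and col1 the count of 14 was 9 with library size alone, 5 with only the groups compared, and 5 to 12 with 1 library left out. Library size alone lost Nek2, Melk, Cdc20, Cenpe and Ncaph (edgeR adjusted p from 0.0516 to 0.0681), fitting only the groups compared lost these and Bub1b, Kif4, Kif23 and Dlgap5 (0.0523 to 0.0914), the lack of a filter lost Nek2, Melk and Cdc20 (0.0534 to 0.106) and gained Kif14 (0.0456), and DESeq2 gained Ncapd2 (DESeq2 adjusted p = 0.0311). The 4 members past the fold threshold were 2 with only the groups compared, 0 when the fold was tested, and 2 to 6 with 1 library left out, and the median was 0.29 to 0.37. Between the ACLP groups the single lower member became 2 without the filter (Smc2 was added, edgeR adjusted p = 0.0209), 4 with DESeq2 (Smc2, Ect2 and Incenp were added), and 0 to 2 with 1 library left out, with a median of -0.28 to -0.19. The causes of these shifts were not tested.

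With the replicate block, 38 members were higher and 1 lower on ACLP, 23 were past the fold threshold and the median was 0.55. The 38 were not all the same genes, since Cks2 passed (adjusted p = 0.0424 by edgeR) and Cdc20 did not (0.0568). Under the block 10 were higher with the inhibitor against col1, where Nek2, Melk, Cdc20, Cenpe and Kif4 were lost and Kif14 was gained, and 1 was lower between the ACLP groups. Same-numbered libraries share only a number. The lowest count of a member in any library was 24, so changes in the scarcest members are the least certain.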

Other observations

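Motif letters also differed among the members. Of the 32 members with a promoter window that were higher on ACLP, 26 (81.2%) held CHR letters, and of the other 17 members 10 (58.8%) did. CCAAT letters were in 78.1% and 64.7% of these windows. The order was reversed for 2 or more CCAAT matches, in 40.6% and 52.9%. None of these differences was tested. Among the other lists, CHR letters were in 61.4% of 57 windows of further mitotic genes and 18.9% of 37 windows of G1/S and DNA replication genes. They were in 14.3% of 14 windows of APC/C subunits and 28.6% of 7 windows of cohesin and its loaders. CCAAT letters were in 62.2% of the G1/S and DNA replication windows.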
